A study of Mus musculus with 10 samples.

Results

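The TRP and Piezo sensory channels described here are Trpv1, Trpv2, Trpv4, Trpa1, Trpm2, Trpm3, Trpm8, Piezo1 and Piezo2, 9 of the 19938 mouse genes in the table. For each gene, the probe set annotated to that gene alone was taken, and for genes with several such probe sets the one with the highest mean over the 10 arrays. The questions were which of the channels already gave a signal above background in dorsal root ganglia (DRGs) of the E13.5 embryo, and which differed between Lkb1 KO and WT ganglia.

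DRGs were taken directly from E13.5 mouse embryos, and RNA from each sample was hybridised to 1 one-colour expression array. The Lkb1 KO group held 5 samples in which a floxed Lkb1 (Stk11) gene was deleted by Wnt1-Cre, and the WT group held 5 samples of wild-type embryos without the deletion, littermates on a mixed background. Every sample pooled the ganglia of 2 embryos, so that each value is an average over 2 animals and over all cells of the ganglia. Wnt1-Cre acts in the dorsal neural tube and the neural crest, which forms the neurons and the glia of the DRG, and not in the vessels or the surrounding mesenchyme. The deletion is therefore not restricted to sensory neurons.

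TRP and Piezo proteins are cation channels that open in response to heat, cold, chemical irritants, osmotic change or membrane stretch, and let sensory neurons turn these stimuli into electrical signals. Nociceptors, mechanoreceptors and proprioceptors carry different sets of them, and in the mouse the sets are refined as the sensory neurons diversify in the embryo and after birth. Runx1, a transcription factor of developing nociceptors, is known to control several of the thermosensitive TRP genes.

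Trpv2, the channel whose difference between the groups is described first, and Trpv1, its relative on the same chromosome, have RefSeq start-site windows (GRCm38.p6, 250 bases before to 50 after the start, 300 bases, both on the + strand) that each hold the letters TGTGGT, the core that RUNX factors bind. They are shown for that shared element, which is in capitals. The Trpv1 window is chr11:73233899-73234198 and the Trpv2 window, from the first of its listed starts, is chr11:62574236-62574535.
Trpv1: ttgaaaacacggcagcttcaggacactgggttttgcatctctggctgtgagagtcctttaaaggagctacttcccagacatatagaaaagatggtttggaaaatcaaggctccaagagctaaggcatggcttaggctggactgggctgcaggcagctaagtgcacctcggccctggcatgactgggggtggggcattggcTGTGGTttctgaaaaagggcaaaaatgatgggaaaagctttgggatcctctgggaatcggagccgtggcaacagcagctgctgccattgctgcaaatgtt
Trpv2: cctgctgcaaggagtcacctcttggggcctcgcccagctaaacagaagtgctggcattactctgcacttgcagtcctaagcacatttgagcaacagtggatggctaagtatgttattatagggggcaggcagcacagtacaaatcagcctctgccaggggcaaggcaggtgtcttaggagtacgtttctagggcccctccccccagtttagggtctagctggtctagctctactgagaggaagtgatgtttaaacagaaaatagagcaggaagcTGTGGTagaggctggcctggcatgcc
With the start at base 251 of the window, the element lies before the start of Trpv1, at bases 201 to 206. It lies after the first listed start of Trpv2, at bases 275 to 280. In the window of the next listed Trpv2 start the same match is at bases 248 to 253, across that start. A search of both strands found TGTGGT in 4 of the 10 windows of the 7 channel genes with an entry, which belong to Trpv1, Trpm3 and Trpv2 (2 overlapping windows that share the same match), and in 16.8% of all 32851 promoter windows of the same length. The palindrome TGACGTCA of the cyclic AMP response element was in 0 of the 10 windows and in 1.79% of all windows. Other elements were searched for in the same windows. The letters TATAAA were found in windows of Trpm8, Piezo1, Trpm2 and Trpv2, and in 13.6% of all windows. Further elements, present in 20.8% and 5.29% of all windows, matched in Trpm2 and in Trpm8 respectively. The RUNX core is therefore not shown to be particular to these channels. All of these are matches of letters and no measure of binding.

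The targeted gene separated the groups in every array. Stk11 read 8.61, 8.61, 8.51, 8.70 and 9.08 in WT replicates 1 to 5 and 7.68, 7.82, 7.69, 7.77 and 7.94 in Lkb1 KO replicates 1 to 5 (log2), a fold change of -0.92 on the log2 scale (SE 0.09, limma adjusted p = 1.15e-04). Other libraries stood apart in ways the labels do not give. The mean of 3 Y-linked genes was 8.80 to 9.81 on 8 arrays and 5.02 and 5.21 on Lkb1 KO replicates 2 and 5. Xist, a transcript of female cells, read 5.06, 11.81, 4.48, 11.79 and 5.46 in WT replicates 1 to 5. In Lkb1 KO replicates 1 to 5 it read 11.77, 12.36, 4.89, 11.70 and 12.37. Low Xist was more frequent in WT, and only Lkb1 KO held arrays without Y-linked signal. The sex of the pooled embryos was therefore not balanced between the groups. The part of sex in the channel values was tested only through a Y-linked covariate and by leaving out samples. Lkb1 KO replicate 3 read 10.41 for the muscle actin Actc1, against 6.78 to 7.76 elsewhere, and Lkb1 KO replicate 2 read 7.83 for the noradrenaline enzyme Dbh, against 4.79 to 4.91. Defining markers of sensory neurons were well above background, and those of choroid plexus (5 of 5) and spinal cord (6 of 6) were not above it on any array.

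Of the 9 channel genes, 5 lay above the array background in all 10 samples and 4 did not. The deposited table has no detection call, so background was taken as the 95th percentile, in each array, of 1228 olfactory, vomeronasal and taste receptor genes, which was 5.51 to 5.79 (log2) over the arrays. The 5 genes were Trpv1, Trpv2, Trpm3, Piezo1 and Piezo2, against 11718 of all 19938 genes. The lowest single reading among them was 8.32, and all 5 stayed above background on every array when the limit was set at the 99th percentile (6.14 to 6.42), at the 95th percentile of 86 keratin-associated and defensin genes (6.34 to 6.81) or at the median of all genes on the array (6.68 to 6.75). Probe sets differ in how brightly they bind, so the levels of different genes are not set against each other.

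**Figure D1:**
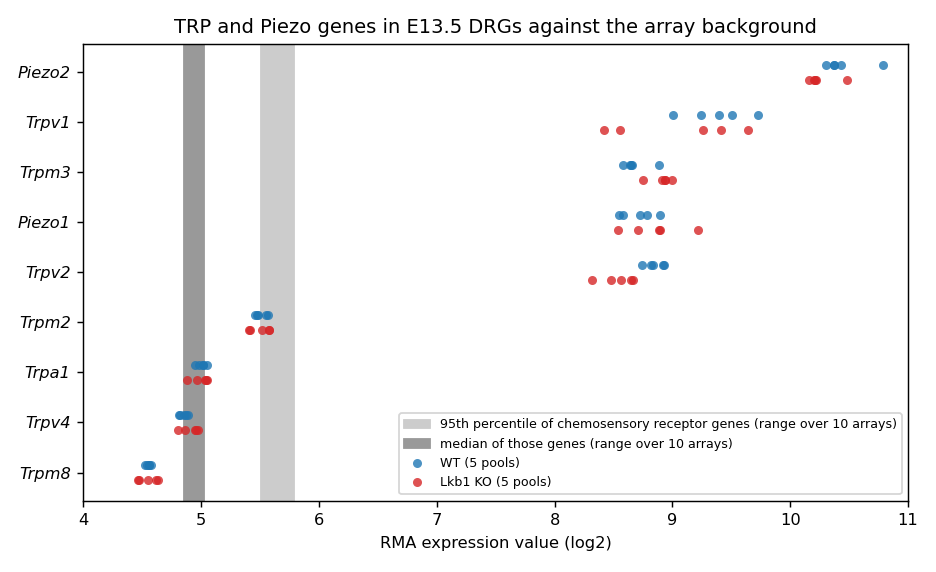
Expression value (log2) of the 9 channel genes on the 10 arrays, one point per pool, with the range over arrays of the median (dark band) and of the 95th percentile (light band) of 1228 chemosensory receptor genes. Trpv1, Trpv2, Trpm3, Piezo1 and Piezo2 lie at 8.32 or above in every pool, while Trpm8, Trpv4, Trpa1 and Trpm2 lie in or near the bands.

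The 4 channels not above background were Trpa1, Trpm8, Trpv4 and Trpm2. Trpa1, the receptor for irritants such as mustard oil, read 4.95 to 5.05 in WT and 4.88 to 5.05 in Lkb1 KO. Trpm8, the receptor for cold and menthol, read 4.52 to 4.57 and 4.46 to 4.63, and the osmosensitive channel Trpv4 read 4.81 to 4.89 and 4.81 to 4.97. On no array did any of the 3 exceed the background limit, and their readings sat around the median of the receptor genes (4.86 to 5.03) or below it.

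Trpm2, a channel opened by oxidative stress and by warmth, read 5.46 to 5.57 in WT and 5.41 to 5.58 in Lkb1 KO, and exceeded the limit on 1 of 10 arrays, Lkb1 KO replicate 1. Its mean level lay above 92.7% of the background genes. For these 4 genes the fitted log2 differences between Lkb1 KO and WT ran from -0.0088 (Trpa1) to 0.058 (Trpv4), with limma adjusted p between 0.576 and 0.982. A difference in a transcript that gives a signal near background may be compressed on such an array, so these values do not bound the change in RNA.

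Between Lkb1 KO and WT ganglia, 1 of the 9 channel genes passed the test, Trpv2, which was lower in Lkb1 KO. Over all genes, 3.87% were called at this threshold (limma, Benjamini-Hochberg adjusted p under 0.05), with 1.38% (275 genes) lower in Lkb1 KO and 2.49% above WT. Among genes above background on every array 5.91% were called, and 2.17% were called lower. A single gene of 9 is therefore described as a result on Trpv2 and not on the channels as a set. With the replicate number as a block, 3 of the 9 were called, Trpv2 and Piezo2 lower and Trpm3 higher, where 6.42% of all genes were (2.83% lower, 3.59% above WT). At the stricter rate of 0.01 that the methods name, 0 of the 9 and 1.57% of all genes were called with limma, while 3 of the 9 (Trpv2, Trpm3 and Piezo2) and 15.3% of all genes had an unadjusted p under 0.05. The median log2 difference was -0.0085 over the 9 genes and -0.0017 over all genes. The former is the value of Trpm2, which was not above background. The 5 genes above background differed by -0.32 (Trpv1), -0.31 (Trpv2), -0.20 (Piezo2), 0.14 (Piezo1) and 0.22 (Trpm3).

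Trpv2 encodes a calcium-permeable channel that responds to membrane stretch and, in transfected cells, to strong heat, and it is known in the embryonic mouse as a channel of growing sensory and motor axons. It read 8.84, 8.92, 8.81, 8.93 and 8.74 in WT replicates 1 to 5 (8.85 ± 0.078, SD, n = 5) and 8.67, 8.48, 8.65, 8.32 and 8.56 in Lkb1 KO replicates 1 to 5 (8.54 ± 0.14, SD, n = 5). Each Lkb1 KO value lay below each WT value, with Lkb1 KO replicate 4 the lowest. Over all genes, 5.34% had groups that did not overlap, and 2.24% had every Lkb1 KO value below every WT value. Trpv2 was 1.24-fold lower in Lkb1 KO, a log2 fold change of -0.31 (SE 0.07, 95% confidence interval -0.45 to -0.17, limma adjusted p = 0.0187). A two-sided exact permutation test of the 10 values gave p = 0.00794, the smallest that 5 against 5 samples allow. The call was lost without WT replicate 2 (adjusted p = 0.0535), without Lkb1 KO replicate 2 (0.0518), without WT replicate 4 (0.0563), and without Lkb1 KO replicates 2 and 5 together (0.0964, log2 fold change -0.30).

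The lower Trpv2 signal went together with lower signal of sensory neuron genes. Of 15 measured pan-neuronal and sensory neuron markers, 3 were lower in Lkb1 KO (Elavl4, Isl1 and Prrxl1) and 0 were higher, with a median log2 difference of -0.13. Their summed level on the linear scale was 45473 to 48323 in WT and 42641 to 44303 in Lkb1 KO, without overlap, and it was lowest in Lkb1 KO replicate 4, the sample in which Trpv1 and Trpv2 were also lowest. In the opposite direction, 7 of 8 fibroblast and mesenchyme markers (Col1a1, Col1a2, Col3a1, Lum, Dcn, Postn and Twist1; sum 7022 to 7309 in WT and 8749 to 9126 in Lkb1 KO) and 7 of 7 markers of dividing cells (Mki67, Top2a, Cdk1, Kif11, Bub1, Ccna2 and Aurkb; 3451 to 3947 and 4551 to 5339) were higher in Lkb1 KO. With the mean of the neuron markers as a covariate, the log2 difference of Trpv2 was -0.031 (SE 0.11, adjusted p = 0.938). That mean itself followed the genotype (Pearson r = -0.886 over the 10 arrays, a description of samples that fall into 2 groups), and with it in the model 0.206% of all genes were called. In RNA from whole ganglia, fewer cells of a type and less RNA per cell cannot be told apart. The paper counted Islet1-positive neurons in Lkb1 KO and WT ganglia at a later embryonic stage and could not detect a significant difference. That count does not cover the E13.5 samples.

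Markers of other cells differed as well. Of 6 Schwann cell and satellite glia markers 1 was lower, Cdh19 (sums 14050 to 14797 in WT and 13329 to 14516 in Lkb1 KO), of 8 endothelial markers 1 was higher, Cldn5 (4683 to 4949 and 4710 to 5637), and of 5 cartilage markers 2 were higher, Sox9 and Col2a1 (318 to 337 and 372 to 424, with Acan and Matn1 at background). The spinal cord genes Pax6 and Pax2 passed the test as higher in Lkb1 KO, but both read below the background limit. The summed level of 8 pericyte and smooth muscle markers did not overlap between the groups either (1314 to 1395 in WT and 1413 to 1746 in Lkb1 KO, median log2 difference 0.16, Tagln and Myh11 at background), although none of them passed the main test. None of 8 macrophage genes (sums 824 to 991 and 903 to 960), 6 epidermal genes (388 to 443 and 340 to 402), 6 skeletal muscle genes (261 to 324 and 292 to 1624, the highest in Lkb1 KO replicate 3), 5 choroid plexus genes (134 to 139 and 134 to 150) or 5 sympathetic neuron genes (1431 to 2402 and 1459 to 1796) passed it, and 5 of the 6 epidermal genes, all but Cdh1, were at background. With the replicate block the epidermal gene Cdh1 (adjusted p = 0.00389) and the neuron marker Avil (0.0163) were called lower, and the pericyte genes Pdgfrb (0.0212) and Kcnj8 (0.0455), the cartilage gene Col9a1 (0.0166), the mesenchymal gene Pdgfra (0.0392) and the endothelial gene Kdr (0.0490) were called higher. The part of these cells in the channel values was not tested.

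Trpv1, the receptor for capsaicin and noxious heat, showed a difference of the same size that was not larger than its spread. It read 9.72, 9.51, 9.39, 9.25 and 9.01 in WT replicates 1 to 5 (9.38 ± 0.27, SD, n = 5) and 9.64, 9.26, 9.41, 8.42 and 8.55 in Lkb1 KO replicates 1 to 5 (9.06 ± 0.54, SD, n = 5). The groups overlapped, and Lkb1 KO replicates 4 and 5 fell below all other samples. The log2 difference was -0.32 (SE 0.22, 95% confidence interval -0.79 to 0.15, limma adjusted p = 0.563, two-sided exact permutation p = 0.278), and it was -0.16 without Lkb1 KO replicate 4, -0.19 without Lkb1 KO replicate 5 and -0.47 at most when another sample was left out. The pooled within-group SD of Trpv1, 0.428 on the log2 scale, was at the 99.7th percentile of all genes. With the replicate block the SE of the difference was 0.10 (limma adjusted p = 0.110), and Lkb1 KO was lower in 4 of the 5 numbered pairs.

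Trpm3, a heat-activated channel that also responds to pregnenolone sulfate, ran the other way. It read 8.89, 8.58, 8.64, 8.66 and 8.64 in WT replicates 1 to 5 (8.68 ± 0.12, SD, n = 5) and 9.0, 8.94, 8.93, 8.75 and 8.91 in Lkb1 KO replicates 1 to 5 (8.91 ± 0.095, SD, n = 5). The groups overlapped through WT replicate 1, which lay above Lkb1 KO replicate 4, and in each of the 5 numbered pairs the Lkb1 KO value was the higher one. The log2 difference was 0.22 (SE 0.06, 95% confidence interval 0.091 to 0.358), and it missed the threshold in the main test (limma adjusted p = 0.0675, two-sided exact permutation p = 0.0159) and passed it with the replicate block (adjusted p = 0.0225). It also passed without WT replicate 1 (0.0134) or without Lkb1 KO replicate 4 (0.0314). With the neuron marker mean as a covariate the difference of Trpm3 was 0.43 (SE 0.12, adjusted p = 0.236), of the same sign.

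**Figure D2:**
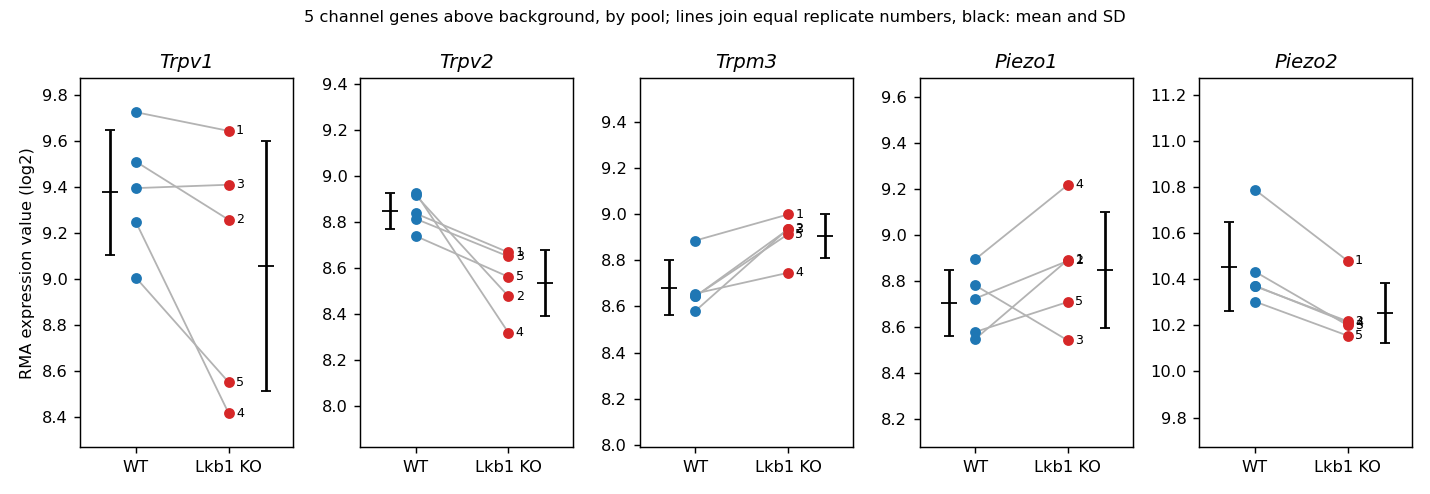
Expression values (log2) of the 5 channel genes above background in WT (blue) and Lkb1 KO (red) pools, with lines joining pools of equal replicate number, the number beside the Lkb1 KO point, and the mean and SD in black; each panel spans the same log2 range. Trpv2 is lower in every Lkb1 KO pool than in any WT pool, Trpm3 lies higher and Piezo2 lower at the Lkb1 KO end of each of the 5 lines, and the gap of Trpv1 is widest in replicates 4 and 5.

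Piezo2 is the stretch-activated channel of touch receptors and proprioceptors, and Piezo1 its relative, best known from endothelium and other cells under shear stress. Piezo2 read 10.79, 10.37, 10.43, 10.37 and 10.30 in WT replicates 1 to 5 (10.45 ± 0.19, SD, n = 5) and 10.48, 10.22, 10.20, 10.21 and 10.16 in Lkb1 KO replicates 1 to 5 (10.25 ± 0.13, SD, n = 5). Replicate 1 was the highest sample of both groups, and because of it the groups overlapped. The log2 difference was -0.20 (SE 0.09, 95% confidence interval -0.39 to -0.0093, limma adjusted p = 0.295, two-sided exact permutation p = 0.0873), and without WT replicate 1 it was -0.12 (adjusted p = 0.461).

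In each of the 5 numbered pairs Piezo2 was lower in Lkb1 KO, by 0.15 to 0.31 on the log2 scale, and with the replicate block it passed the test (SE 0.04, adjusted p = 0.0155). The other Piezo2 probe sets gave log2 differences of -0.24 (adjusted p = 0.195 over all probe sets) and -0.23 (0.171) without the block. With the neuron marker mean as a covariate the difference was 0.050 (SE 0.18, adjusted p = 0.938).

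Piezo1 read 8.55, 8.72, 8.78, 8.89 and 8.58 in WT replicates 1 to 5 (8.71 ± 0.14, SD, n = 5) and 8.89, 8.89, 8.54, 9.22 and 8.71 in Lkb1 KO replicates 1 to 5 (8.85 ± 0.25, SD, n = 5). The groups overlapped, with the lowest and the highest of the 10 values both in Lkb1 KO. The log2 difference was 0.14 (SE 0.11, 95% confidence interval -0.089 to 0.378, limma adjusted p = 0.610, two-sided exact permutation p = 0.357), and those of the other Piezo1 probe sets were 0.086 and 0.15 (adjusted p = 0.660 and 0.107 over all probe sets). It was 0.052 without Lkb1 KO replicate 4 and 0.22 without Lkb1 KO replicate 3, the highest and the lowest of the 10 samples. Piezo1 and Piezo2 were therefore not shown to move in one direction, and the difference between them was not tested.

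Of the other TRP genes, 18 of 21 listed were measured as a single gene, and the others were not analysed here. Only 4 lay above background on every array, Trpc1, Trpc4, Trpm7 and Mcoln1, while 12 did so on none and Trpm4 and Trpm5 on some. In the test, 2 were lower in Lkb1 KO and 1 was higher, against 3.87% of all genes and 5.91% of genes above background on every array. The median log2 difference of the 18 genes, most of them not above background, was 0.0034. The 4 above background differed by -0.41 (Trpc4), -0.26 (Trpc1), -0.077 (Mcoln1) and 0.042 (Trpm7).

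Trpc4, a canonical TRP channel gated downstream of receptors, read 7.24, 6.96, 7.36, 6.99 and 6.98 in WT replicates 1 to 5 and 6.90, 6.6, 6.64, 6.61 and 6.69 in Lkb1 KO replicates 1 to 5. The groups did not overlap, and the log2 fold change was -0.41 (SE 0.08, limma adjusted p = 0.0156). It was not called without Lkb1 KO replicates 2 and 5 together (adjusted p = 0.0956), with the Y-linked covariate (0.0977) or with an analysis of variance per gene (0.0899). With the neuron marker mean as a covariate the difference of Trpc4 was -0.17 (SE 0.17, adjusted p = 0.756). Trpc1, which can assemble with Trpc4, was 9.17 ± 0.051 in WT and 8.91 ± 0.15 in Lkb1 KO (SD, n = 5), with 1 sample of Lkb1 KO, replicate 1, reaching the lowest WT value. Its log2 fold change was -0.26 (SE 0.06, adjusted p = 0.0430), and the call was lost when any 1 sample other than Lkb1 KO replicate 1 was left out. With the neuron covariate it was -0.14 (SE 0.14, adjusted p = 0.746).

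Trpm5, a channel of taste cells, was called higher in Lkb1 KO at readings near background, 5.39 to 5.57 in WT and 5.54 to 5.81 in Lkb1 KO. It exceeded the limit on 4 of 10 arrays. The log2 difference was 0.22 (limma adjusted p = 0.0374, 0.0582 with the replicate block), and the call was lost when any 1 sample other than replicate 5 of either group was left out. With the neuron covariate it was 0.075 (adjusted p = 0.841).

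**Figure D3:**
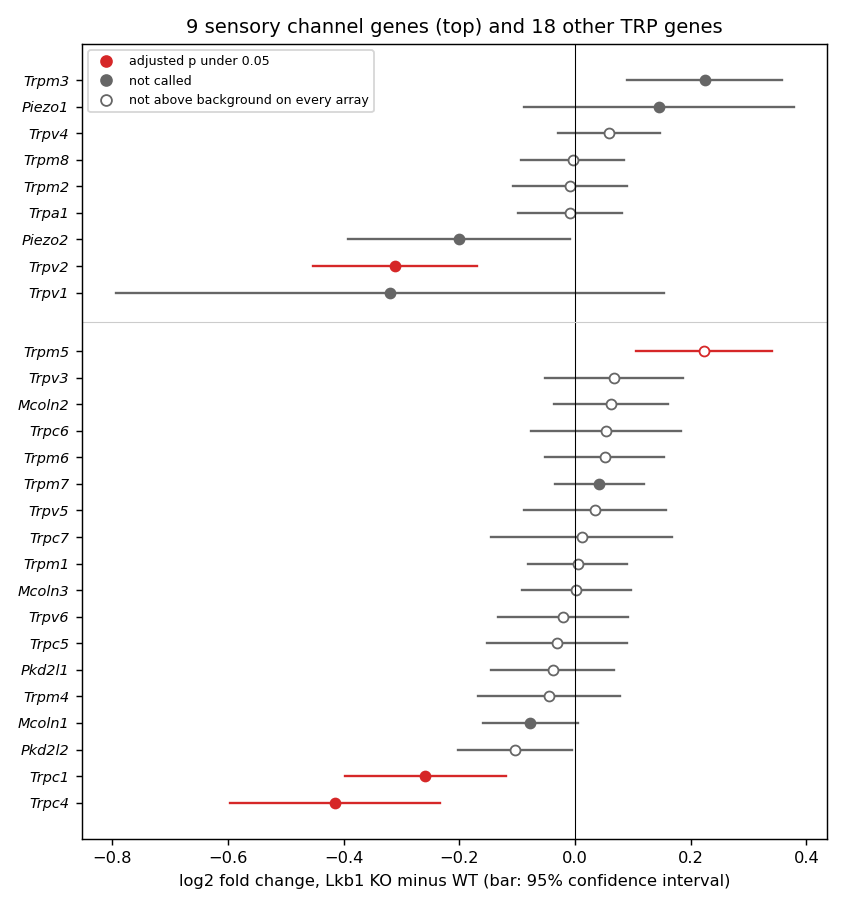
Log2 fold change of Lkb1 KO against WT with its 95% confidence interval for the 9 sensory channel genes (top) and 18 other TRP genes; red marks an adjusted p under 0.05 (limma) and open points genes not above background on every array. Trpv2, Trpc1 and Trpc4 lie to the left of 0, Trpm5 to the right at background levels, and the interval of Trpv1 is the widest of all.

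Among 21 other channels of sensory transduction (acid-sensing, purinergic, two-pore potassium, TMC and related genes), 14 were above background on every array and 1 was called, Tmem120a, first described as a pain-related mechanosensitive channel, a role that has been disputed. It was 7.84 ± 0.015 in WT and 7.66 ± 0.062 in Lkb1 KO (SD, n = 5), without overlap, a log2 fold change of -0.19 (SE 0.04, limma adjusted p = 0.0143). The call ended with the Y-linked covariate (0.0511) and with the neuron covariate (-0.14, 0.552). The median log2 difference of the 21 genes was -0.041, and the 1 call among them stood beside 3.87% of all genes. With the replicate block 3 of the 21 were lower, Tmem120a with the acid-sensing channel Asic1 and the potassium channel Kcnk10, where 2.83% of all genes were.

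Genes that partner or modulate these channels were listed as well, and 11 of 12 were measured (F2rl1 was not analysed here). They had 1 gene higher and 2 lower in Lkb1 KO, where 2.49% of all genes were higher and 1.38% lower, and a median of -0.067. Mdfic, whose protein is known as an auxiliary subunit of Piezo channels, read 7.43, 7.42, 7.33, 7.34 and 7.39 in WT replicates 1 to 5 and 7.69, 7.59, 7.67, 7.64 and 7.54 in Lkb1 KO replicates 1 to 5. Each Lkb1 KO value lay above each WT value, as in 3.09% of all genes. Its log2 fold change was 0.24 (SE 0.04, limma adjusted p = 0.00491), and 0.24 (SE 0.09, adjusted p = 0.352) with the neuron marker mean as a covariate.

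Prkce, the protein kinase C isoform that sensitises Trpv1, was lower in Lkb1 KO without overlap, at 10.39 ± 0.035 in WT and 10.18 ± 0.083 in Lkb1 KO (SD, n = 5), a log2 fold change of -0.21 (SE 0.04, limma adjusted p = 0.0200). Its call was lost without WT replicate 2 (0.0544). The bradykinin receptor gene Bdkrb2 was called lower (-0.24, SE 0.06, adjusted p = 0.0371) at readings of 5.37 to 5.86, above background on 5 of 10 arrays, and lost its call when any 1 sample other than Lkb1 KO replicate 1 or WT replicate 5 was left out. With the neuron covariate the difference of Bdkrb2 was -0.074 (adjusted p = 0.856) and that of Prkce -0.15 (0.610). Pirt, a membrane regulator of Trpv1 and Trpm8, was 11.20 ± 0.14 in WT and 10.92 ± 0.12 in Lkb1 KO (SD, n = 5), a difference of -0.27 that missed the threshold (adjusted p = 0.0566) and passed it with the replicate block (0.0405).

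**Figure D4:**
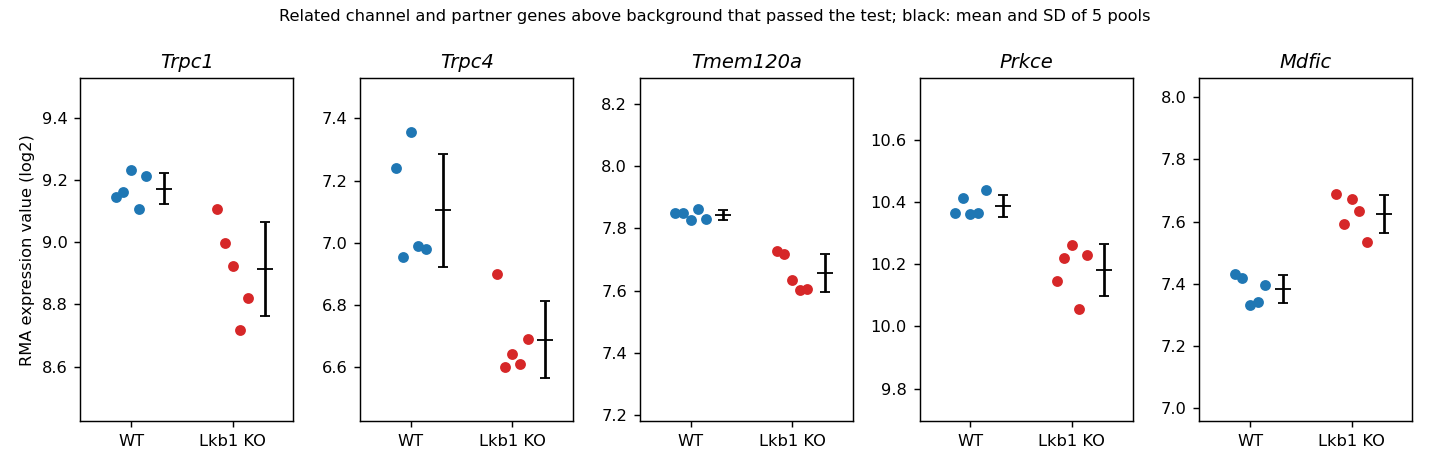
Expression values (log2) of 5 related channel and partner genes above background that passed the test, in 5 WT (blue) and 5 Lkb1 KO (red) pools, with the mean and SD in black; each panel spans the same log2 range. Trpc4, Tmem120a and Prkce are lower and Mdfic is higher in every Lkb1 KO pool than in any WT pool, and the groups of Trpc1 meet at Lkb1 KO replicate 1.

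Genes of the sensory neuron classes that carry these channels did not pass the main test, 0 of 6 nociceptor genes and 0 of 10 mechanoreceptor and proprioceptor genes. Their median log2 differences were -0.14 and -0.13, close to the -0.13 of the neuron markers. Runx1, 1 of the 6 nociceptor genes, differed by -0.13 with overlapping groups (limma adjusted p = 0.430, and 0.157 with the replicate block). The smallest p-values belonged to the nociceptor sodium channel Scn10a (-0.23, limma adjusted p = 0.0544), the neurotrophin receptor Ntrk2 (-0.28, 0.0608) and the transcription factor Etv1 of proprioceptors (-0.15, 0.0637). With the replicate block 6 of the 16 were lower in Lkb1 KO, Scn10a, Ntrk2, Ret, Runx3, Etv1 and Pvalb, where 2.83% of all genes were. At an unadjusted p under 0.05 (limma), 1 of the 6 and 5 of the 10 were lower, where 15.3% of all genes passed in either direction.

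The 3 genes whose values followed Trpv2 most closely over the 10 arrays, among 11717 genes above background on every array, were Nrg1 (Pearson r = 0.960), which encodes an axonal signal to Schwann cells, Abhd2 (0.959), a lipid hydrolase, and Cep70 (0.955), a centrosomal protein. Taken on deviations from each group's mean, which leaves out the difference between the groups, the coefficients were 0.887, 0.862 and 0.861. They describe arrays that share ganglia and background, and the genes were picked as the highest of the search.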

How the data were processed

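Total RNA (250 ng) from E13.5 DRGs of 5 Lkb1 KO and 5 WT samples, each pooled from 2 embryos, was hybridised to Affymetrix mouse gene arrays. The deposited values are log2 expression values per probe set, which the authors made by RMA (background correction, quantile normalization and summary over probes) in Partek 6.6 per the labels; for the test, MATLAB was used by them with a 0.01 rate of false discoveries. RMA can compress low signals and small differences. The number of arrays limits the precision.

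Of 35556 probe sets, 21789 were annotated to exactly 1 gene, 1621 to several and 12146 to none. Genes with several probe sets (999) were given the one with the highest mean, which left 19938 genes. Differences were tested in all 10 samples with limma 3.58.1 (R 4.3.3; lmFit and eBayes, two-sided, Benjamini-Hochberg over all genes, called at adjusted p under 0.05), after a check of the code on simulated data. Single values were tested by exact permutation of the 252 assignments of samples. Labels call the samples biological replicates, and the p-values measure the spread between these pools.

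The labels give both groups replicate numbers 1 to 5 without saying what they mark. Deviations from the group mean correlated at 0.210 to 0.479 between equal numbers and at -0.482 to 0.306 between different numbers. A fit with the number as a block, which treats equal numbers as pairs, is therefore given beside the main fit. The main fit with its confidence intervals, the permutation test and the other alternatives did not use the number. Alternatives covered array scaling, loess, array weights, the variance prior, a filter on dim genes, several probe sets, covariates (Y-linked genes, neuron markers), an analysis of variance per gene and leaving out samples. Leaving out Lkb1 KO replicates 2 and 5 together was chosen after seeing the data. The members and the gene lists were chosen with earlier results of these data known. Named are the 9 members, Stk11, genes called in each list (or those with the smallest p where none was), and the 3 genes most like a called member. Runx1 is named because RUNX core letters were searched for. Promoter windows came from RefSeq (GRCm38.p6), matched by gene identifier; entries were found for 7 members.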

Additional observations from a re-analysis of the deposited data

Results flagged for a closer look

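Samples far from the rest of their group were looked for in the 9 channel genes and 7 called related genes, in 32 groups of 5 samples, by the gap to the nearest sample relative to the group's range (Dixon's 95% critical value); chance marks about 1 in 20 groups. In 3 groups a sample exceeded it. Trpm3 was 8.89 in WT replicate 1, with the nearest WT value at 8.66. Piezo2 was 10.79 in WT replicate 1, with the nearest at 10.43, and 10.48 in Lkb1 KO replicate 1, with the nearest at 10.22. All 3 are samples numbered 1 and lie on the high side.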

How the results depend on the processing

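Trpv1, Trpv2, Trpm3, Piezo1 and Piezo2 stayed above background under all 4 alternatives tried for it. The number of the 9 channels called, 1 in the main test, was 2 with array medians aligned, 2 with loess, 2 with array weights, 3 with the replicate block, and 0 with analysis of variance per gene, the Y-linked covariate, the neuron covariate or without Lkb1 KO replicates 2 and 5; leaving out single samples gave 0 to 2. Called other TRP genes, 3 in the main test, were 0 with analysis of variance, 1 with the Y-linked covariate, 0 with the neuron covariate and 1 without Lkb1 KO replicates 2 and 5 (single samples, 1 to 2). Called other transduction channels, 1, were 2 with the mean of probe sets, 3 with the block and 0 with either covariate (1 to 2). Called partners, 3, were 0 with the neuron covariate (1 to 5). Called subclass genes, 0, were 2 with medians aligned, 2 with loess, 3 with an intensity trend, 2 with array weights, 1 without dim genes and 6 with the block (0 to 2). The replicate block changed no other call in the 9 channels and the gene lists than those given in the report. The causes were not tested.

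Over all genes the calls changed with the setting too: 771 in the main test became 1280 with the block, 387 with analysis of variance, 475 with the Y-linked covariate, 41 with the neuron covariate and 459 without Lkb1 KO replicates 2 and 5.

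The Trpv2 difference kept its sign in all 22 alternatives and its call in 15; adjusted p was 0.0845 with analysis of variance and 0.0873 with the Y-linked covariate (-0.30). Trpm3 kept its sign in all 22 and was called in 6, among them medians aligned (0.0488), loess (0.0298) and array weights (0.0205). With the neuron covariate the log2 differences of Trpv1, Trpv4, Trpa1, Trpm2, Piezo1 and Piezo2 changed sign, to 0.67, -0.0024, 0.020, 0.076, -0.14 and 0.050, none of them called. Values of genes at background crossed 0 elsewhere: Trpa1 to 0.018 with the Y-linked covariate and 0.016 without Lkb1 KO replicates 2 and 5 (-0.023 to 0.019 leaving out single samples), Trpm2 to 0.010 with array weights (-0.029 to 0.014), and Trpm8 to 8.1e-04 with array weights and 9.1e-04 without Lkb1 KO replicates 2 and 5 (-0.025 to 0.017).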

Other observations

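Samples numbered 1 were the highest of their group in both WT and Lkb1 KO for 3 of the 5 channel genes above background, Trpv1, Trpm3 and Piezo2. This was so for 13.4% of the 11718 genes above background, against 1.74% to 7.48% for the other numbers. For Piezo1 the samples numbered 4 were the highest of both groups, the number with the share of 1.74%. Among other sensory genes, picked after their values were seen, the nociceptor sodium channel gene Scn11a read 7.38 in WT replicate 1, against 5.94 to 6.55 in the other WT samples, and 7.19 in Lkb1 KO replicate 1, against 5.89 to 6.43 in the others. Pvalb, a calcium-binding protein of proprioceptors, read 6.77 in WT replicate 1 and 6.49 in Lkb1 KO replicate 1, against 6.07 to 6.35 and 5.87 to 6.02. Avil, an actin regulator of peripheral sensory neurons, read 9.86 and 9.65 in these samples, against 9.27 to 9.47 and 8.94 to 9.35. The glial gene S100b, which is no sensory neuron gene, read 6.48 and 6.35 in them, against 5.74 to 6.06 and 5.76 to 6.03. The nociceptor gene Tac1 went another way. It read 9.05 in WT replicate 1, below 9.11 in WT replicate 2. In Lkb1 KO replicate 1 it read 8.59, below 8.82 and 8.68 in Lkb1 KO replicates 2 and 3. The labels do not say what the replicate number marks, and its part in these values was not tested.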
